A study of Mus musculus with 4 samples.

Results

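The immunoglobulin kappa V segments were taken as every row of the deposited expression table whose gene symbol starts with Igkv, which gave 91 of 14226 rows. For 1 row with a blank symbol the name came from its first listed gene. RNA sequencing was done on spleen cells of C57BL/6N mice, with 2 wild-type libraries (genotype wt) and 2 libraries of a transgenic genotype written vcS5 +/T. The series concerns an activating mutation in STAT5, a transcription factor that relays cytokine signals, and peripheral T cell lymphoma. Both vcS5 samples carry the sample name line1, so they represent 1 transgenic line, and the promoter that drives the transgene and the ages of the mice are not given in the sources used here. Stat5a, read as a check of the labels, was at 13.9 and 17.0 FPKM in wild type against 105 and 123 FPKM in vcS5.

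An antibody light chain of the kappa type is made from 1 V segment, joined in each B cell to a J segment (Igkj) and spliced to the single constant segment Igkc. The V segments lie upstream of the J segments on both strands, so that joining deletes or inverts the DNA between them, and each B cell clone keeps the segment it chose. In bulk spleen RNA the shares of the V segments therefore describe the pooled light chains of B cells and of plasma cells, which hold far more light chain RNA per cell. Fewer cells of a type and less RNA per cell cannot be told apart in such samples.

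The largest difference in composition lay in 1 row. The row named Igkv5-39, which merges the segments Igkv5-39 and Igkv5-37, held 25.5% and 25.4% of all kappa V expression in the vcS5 libraries, against 7.98% and 2.80% in wild type. Most other segments were lower in vcS5. Of the 91 rows, 55 (60.4%) had both vcS5 values under both wild-type values, where 27.5% of all rows did. The test called 11 (12.1%) as lower, where 4.13% of all rows were called so. Without the Igkv5-39 row, the evenness of segment use overlapped between the groups.

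The V exons of the 2 segments in that row are shown because the difference in evenness was not seen without this row. Both lie on the minus strand of chromosome 6 in GRCm38 (mm10), Igkv5-39 at chr6:69900424-69900721 and Igkv5-37 at chr6:69963312-69963609, and both are annotated as functional V genes in GENCODE vM21. Each V exon is 298 bases long, and 255 bases (85.6%) are identical, with 35 bases in the longest identical run. Capitals mark the 43 bases that differ.
Igkv5-39: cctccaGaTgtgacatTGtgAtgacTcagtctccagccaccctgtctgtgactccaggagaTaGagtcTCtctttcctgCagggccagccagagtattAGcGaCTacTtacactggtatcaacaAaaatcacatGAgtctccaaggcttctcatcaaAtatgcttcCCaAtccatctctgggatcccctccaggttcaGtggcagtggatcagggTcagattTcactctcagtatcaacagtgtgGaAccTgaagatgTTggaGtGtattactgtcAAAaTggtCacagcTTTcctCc
Igkv5-37: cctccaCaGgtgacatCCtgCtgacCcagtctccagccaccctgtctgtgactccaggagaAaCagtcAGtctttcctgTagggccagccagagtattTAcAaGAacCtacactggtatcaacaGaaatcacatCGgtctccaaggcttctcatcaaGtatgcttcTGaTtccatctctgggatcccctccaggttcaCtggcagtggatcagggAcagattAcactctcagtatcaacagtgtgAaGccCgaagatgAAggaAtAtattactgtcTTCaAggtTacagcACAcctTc
No 50-base window of the Igkv5-39 or the Igkv5-37 transcript occurs in another immunoglobulin V transcript of that annotation. The deposited row joins both segments, so its FPKM cannot be divided between them.

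The ends of the V exons give the germline start of the third complementarity-determining region, the part of the light chain that differs most between segments. The 3′ ends of the 2 segments above and of the first named segment of each of the next 4 rows by abundance are shown, with the codon of the conserved cysteine in capitals.
Igkv5-39: TGTcaaaatggtcacagctttcctcc
Igkv5-37: TGTcttcaaggttacagcacaccttc
Igkv3-2: TGTcagcaaagtaaggaggttcctcc
Igkv4-57-1: TGCcagcagtacagtggttacccactca
Igkv12-46: TGTcaacatttttggggtactcctcc
Igkv10-96: TGCcaacagggtaatacgcttcctcc
These ends differ between all 6 segments shown, but an end does not always mark a single segment. Igkv4-59, Igkv4-68, Igkv4-71 and Igkv4-72 have the same end, and so do Igkv9-120 and Igkv9-129. The rows of Igkv3-2, Igkv12-46 and Igkv10-96 each merge a second segment, whose end is not shown. Longer stretches are shared between segments as well. The 50-base windows that also occur in another V transcript made up a median of 24.4% of the windows of a member, and up to 74.5%. They were counted for the first named segment of a merged row. In 22 rows that segment shared no window, although in 1 of them, Igkv4-90, the second segment Igkv4-86 shared 19.8% of its windows. Reads of 50 bases from shared windows can be assigned to more than 1 segment, so single rows with many shared windows are uncertain.

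The 91 rows lay between chr6:67555636-70704177 and carried 88 distinct symbols in 19 families. By the annotation, 87 rows were functional V genes and 4 were pseudogenes. Of 100 functional kappa V genes in the annotation 92 had a row, and the others were not analysed here. The 92 include Igkv4-51, which is counted only through an identifier listed in a row that lies elsewhere. In all, 82 rows held 1 gene identifier and 9 merged several. No member was listed at 0 in any library, and no filter on low values removed a member. In 32 rows the deposited span was shared with another member, since the authors' loci join neighbouring segments.

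Summed over the 91 rows, kappa V expression was 16405 and 11941 FPKM (fragments scaled to transcript length and to library size) in wild type, while vcS5 had 11379 and 7405 FPKM. The groups did not overlap, and the vcS5 mean of 9392 ± 2810 FPKM (SD, n = 2) was 1.51-fold lower than the wild-type mean of 14173 ± 3156 FPKM (SD, n = 2). An exact permutation test on log2 sums, two-sided, gave p = 0.333, the smallest value that 2 libraries against 2 allow. Without the Igkv5-39 row, an alternative added after the values were seen, the sums were 15096 and 11607 FPKM against 8476 and 5524 FPKM, a 1.91-fold difference. After scaling to rows that are not immunoglobulin the sums overlapped, with a log2 difference of -0.49, against -0.61 as deposited. Leaving out wild-type replicate 1 gave -0.38 and vcS5 replicate 2 gave -0.30, while leaving out vcS5 replicate 1 gave -0.92.

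Igkc, the constant segment that every kappa transcript shares, was at 23431 and 19172 FPKM in wild type, and at 12311 and 10156 FPKM in vcS5. Both vcS5 values lay below both wild-type values, 1.90-fold apart in the means, and limma gave a log2 change of -0.92 with an adjusted p of 0.247. The ratio of summed Igkv to Igkc was 0.700 and 0.623 in wild type against 0.924 and 0.729 in vcS5. On the log2 scale this ratio was 0.31 higher in vcS5 (exact permutation p = 0.333, two-sided), and without the Igkv5-39 row it was -0.03, with overlapping groups. The log2 difference was 0.14 without vcS5 replicate 1 and 0.49 without vcS5 replicate 2. Without that row, the Igkv sum and Igkc differed by nearly the same factor between the groups. Igkc still includes transcripts that use the segments of that row. The comparison therefore sets a part of the V expression beside the whole constant region.

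B cell markers were lower by more than the kappa V sum. Their mean on the log2(FPKM + 1) scale was 7.90 and 8.15 in wild type against 6.72 and 6.63 in vcS5, a difference of -1.34, against -0.61 for the log2 sum of Igkv. The gap of 0.74 between these 2 differences had groups that did not overlap (exact permutation p = 0.333, two-sided). Without the Igkv5-39 row it was 0.39, and the groups overlapped. Leaving out wild-type replicate 2 gave 0.38 and leaving out vcS5 replicate 1 gave 0.47, while without wild-type replicate 1 the gap was 1.09.

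Igkv5-39 had the highest mean of the members. Its values were 1309 and 334 FPKM in wild type against 2903 and 1881 FPKM in vcS5. Both vcS5 libraries lay above both wild-type libraries, and the means were 2.91-fold apart, 821 ± 689 FPKM against 2392 ± 723 FPKM (SD, n = 2 each). The wild-type pair itself differed 3.92-fold. limma gave a log2 change of 1.82 ± 0.67 (SE) with an unadjusted p of 0.0407 and an adjusted p of 0.176, so the row did not pass the test. The authors' deposited table gives it a q-value of 0.000995. Without wild-type replicate 1 the log2 change was 2.80, and without wild-type replicate 2 it was 0.84. In the share of kappa V expression the vcS5 libraries differed by far less than the wild-type pair, and they were on average 20.1 percentage points higher.

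Igkv12-38, a segment that lies in the same deposited span, was at 9.61 and 13.3 FPKM in wild type, while vcS5 had 10.8 and 17.8 FPKM, with overlapping groups. The other family 5 rows did not follow Igkv5-39. Igkv5-48 was at 221 and 269 FPKM in wild type, and at 98.1 and 88.3 FPKM in vcS5, and it passed the test as lower. Igkv5-43, at 142 and 97.7 FPKM against 59.4 and 77.5 FPKM, and Igkv5-45, at 9.45 and 11.7 FPKM against 8.68 and 4.53 FPKM, were lower in both vcS5 libraries and did not pass.

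**Figure D1:**
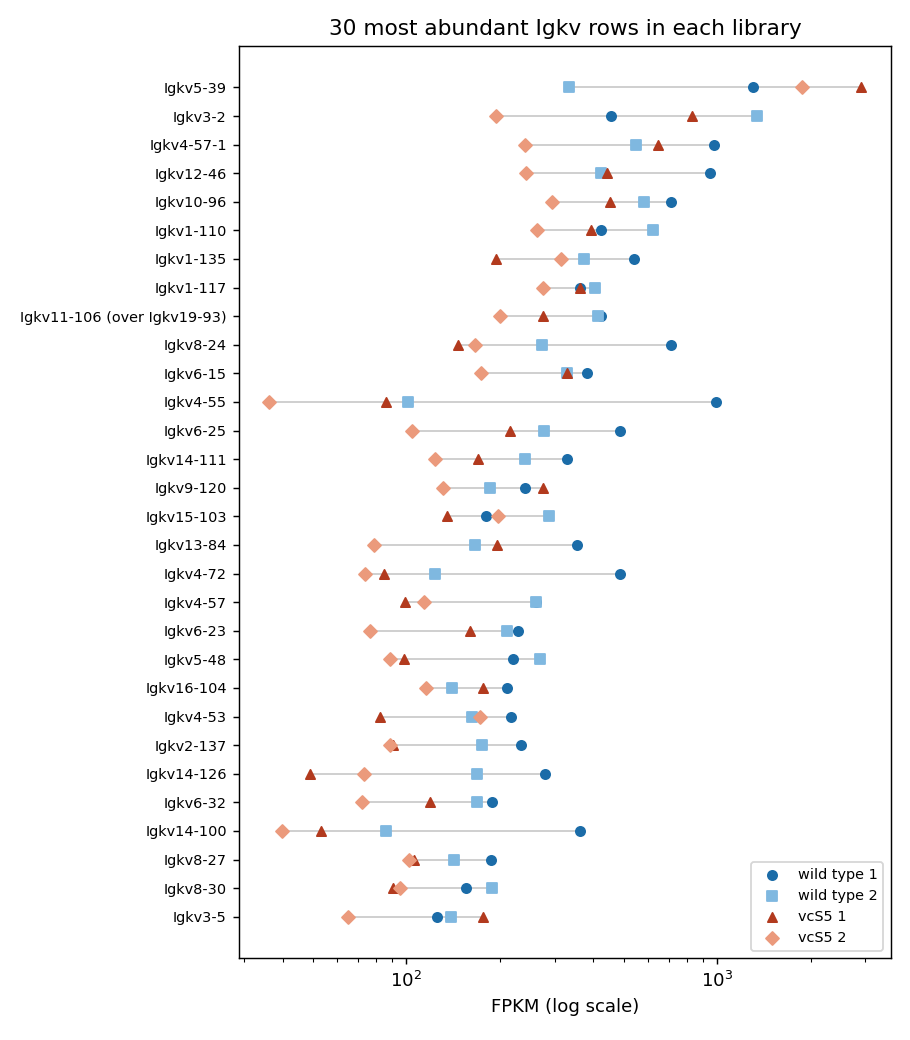
FPKM on a log axis of the 30 Igkv rows with the highest mean, 1 point per library, with a grey line from the lowest to the highest library. Igkv5-39 is the only row of the 30 with both vcS5 libraries (red) to the right of both wild-type libraries (blue).

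The other abundant rows were ordered differently in each library. Igkv3-2, a row that merges Igkv3-2 and Igkv3-4, was at 455 and 1346 FPKM in wild type against 831 and 194 FPKM in vcS5. It was the most used row of wild-type replicate 2, at 11.3% of kappa V expression, while Igkv5-39 was the most used row of the other 3 libraries. Igkv4-57-1 was at 976 and 549 FPKM in wild type, while vcS5 had 646 and 240 FPKM. In both rows the groups overlapped. A second, less abundant row of Igkv4-57-1 at the same position was at 76.9 and 72.4 FPKM in wild type. In vcS5 it had 50.1 and 38.5 FPKM, lower without overlap, and it did not pass the test.

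Igkv12-46, which merges Igkv12-46 and Igkv12-44, was at 948 and 423 FPKM in wild type, and at 442 and 242 FPKM in vcS5. Igkv10-96, which merges Igkv10-96 and Igkv10-94, was at 710 and 583 FPKM in wild type against 453 and 295 FPKM in vcS5. Igkv1-110, whose row names a further identifier that the annotation used here does not hold, was at 422 and 623 FPKM in wild type, while vcS5 had 391 and 263 FPKM. Igkv10-96 and Igkv1-110 were lower in both vcS5 libraries, while Igkv12-46 overlapped, and none of the 3 passed the test.

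Igkv1-135 was at 541 and 374 FPKM in wild type, and at 194 and 315 FPKM in vcS5. Igkv1-117 was at 362 and 405 FPKM in wild type against 363 and 276 FPKM in vcS5. Of these 2 segments only Igkv1-135 had groups that did not overlap, and neither passed the test.

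In the limma fit over all 14226 rows, 11 of the 91 rows (12.1%) passed an adjusted p of 0.05 as lower in vcS5, where 4.13% of all rows passed as lower. None passed as higher, where 4.59% of all rows did. At an unadjusted p under 0.05 there were 42 lower rows and 1 higher row, the Igkv5-39 row. Over all 14226 rows 1870 were lower and 1725 higher at that level. Of the members 82 (90.1%) had a log2 change below 0, against 49.9% of all rows, and the median was -0.86 against 0.001 over all rows. Groups that did not overlap occurred in 55 rows as lower (60.4%), where the share over all rows was 27.5%, and in 2 rows as higher (2.2%), where it was 26.9%. Those 2 were Igkv5-39 and Igkv3-9, the latter at 1.71 and 1.54 FPKM in wild type, while vcS5 had 1.89 and 4.71 FPKM.

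The authors' deposited table has q-values under 0.05 for 32 members as lower and for 1, Igkv5-39, as higher. Such a q-value occurs for 6.14% of all rows as lower and for 5.31% as higher. Of the 11 rows that passed in limma, 9 are among those 32.

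The calls rest on all 4 libraries. Without wild-type replicate 1 no member passed as lower, without wild-type replicate 2 there were 6, and without either vcS5 library none, and none of the 11 rows was among those 6. A lone library is then assumed to vary like the other group.

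Of the 11 rows, 3 were of family 4. The second row of Igkv4-57 was at 128 and 158 FPKM in wild type, and at 48.8 and 48.3 FPKM in vcS5 (log2 change -1.53, limma adjusted p = 0.0108). The first row of Igkv4-57, at the same position, was at 262 FPKM in both wild-type libraries and 98.9 and 114 FPKM in vcS5 (log2 change -1.30, limma adjusted p = 0.0134). Igkv4-90, which merges Igkv4-90 and Igkv4-86, was at 186 and 114 FPKM in wild type against 36.5 and 13.4 FPKM in vcS5 (6.02-fold lower, limma adjusted p = 0.0385). Igkv4-90 had the largest fold difference of the 11 rows, and the 2 rows of Igkv4-57 cannot be told apart by position.

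Of the family 8 segments, Igkv8-16 was at 38.1 and 35.8 FPKM in wild type, while vcS5 had 16.3 and 11.3 FPKM (limma adjusted p = 0.0223). It has 74.5% of its windows in common with other V transcripts, the highest value of the members. Igkv8-19 was at 122 and 142 FPKM in wild type, and at 73.3 and 58.1 FPKM in vcS5 (limma adjusted p = 0.0348), and its deposited span holds 7 member rows. Igkv8-30 was at 155 and 189 FPKM in wild type against 90.6 and 95.3 FPKM in vcS5 (limma adjusted p = 0.0371).

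Igkv5-48, described above, had a log2 change of -1.38 with a limma adjusted p of 0.0151. Igkv9-124 was at 176 and 153 FPKM in wild type, while vcS5 had 49.8 and 66.8 FPKM (limma adjusted p = 0.0168). Among the rows farthest from the J segments, Igkv2-137 was at 234 and 175 FPKM in wild type, and at 90.7 and 88.4 FPKM in vcS5 (limma adjusted p = 0.0270). Igkv14-126 was at 279 and 169 FPKM in wild type against 49.0 and 72.9 FPKM in vcS5 (limma adjusted p = 0.0317). Igkv17-127 was at 132 and 136 FPKM in wild type, while vcS5 had 71.9 and 48.1 FPKM (limma adjusted p = 0.0391). In each of the 11 rows both vcS5 libraries lay below both wild-type libraries, and the fold differences ran from 1.85 to 6.02.

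By abundance, 34 rows had a mean of at least 100 FPKM, of which 6 passed as lower, and 38 had a mean of 10 to 100 FPKM, of which 5 passed. None of the 19 rows under 10 FPKM passed in limma, although 6 had an unadjusted p under 0.05, all lower. Over all rows 25.3% had such a p in either direction. The median log2 change was -0.92, -0.88 and -0.57 in the 3 classes. Changes of low rows are understated on the log2(FPKM + 1) scale. In the 22 rows whose first named segment shared no window the median was -0.99 with 4 lower calls, the merged Igkv4-90 row among them, and in the other 69 it was -0.86 with 7.

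In 10 rows wild-type replicate 1 was over 3-fold above replicate 2. Igkv4-55 was at 989 and 102 FPKM in wild type, and at 85.8 and 36.1 FPKM in vcS5. Igkv1-122 was at 233 and 28.8 FPKM in wild type against 15.7 and 6.28 FPKM in vcS5. In both segments wild-type replicate 1 stood far above the other 3 libraries, and neither passed the test (limma adjusted p = 0.240 for Igkv4-55 and 0.154 for Igkv1-122).

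Across the members, 62 of 91 rows were higher in wild-type replicate 1 than in replicate 2, and 68 were higher in vcS5 replicate 1 than in replicate 2. The median ratio was 1.22 in wild type and 1.53 in vcS5. vcS5 replicate 2 was the lowest of the 4 libraries in 65 rows. Neutrophil markers were also high in wild-type replicate 1, with a summed level of 6091 FPKM against 1809 FPKM in replicate 2 and 983 and 944 FPKM in vcS5. Plasma cell markers summed to 1424 and 1017 FPKM in wild type, while vcS5 had 830 and 635 FPKM. The part of either in the segment levels was not tested.

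The segment shares remove differences in the total. Pielou evenness, which is 1 when all rows are equally abundant, was 0.844 and 0.849 in wild type against 0.748 and 0.764 in vcS5. The vcS5 mean was 0.09 lower, with groups that did not overlap (exact permutation p = 0.333, two-sided). Expressed as an effective number of segments, the exponential of the Shannon entropy, this was 45.0 and 46.0 in wild type against 29.2 and 31.4 in vcS5. The 5 most used rows held 30.1% and 29.5% in wild type against 46.4% and 40.9% in vcS5, and 50% of the expression was reached with 12 and 13 rows against 7 and 8.

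**Figure D2:**
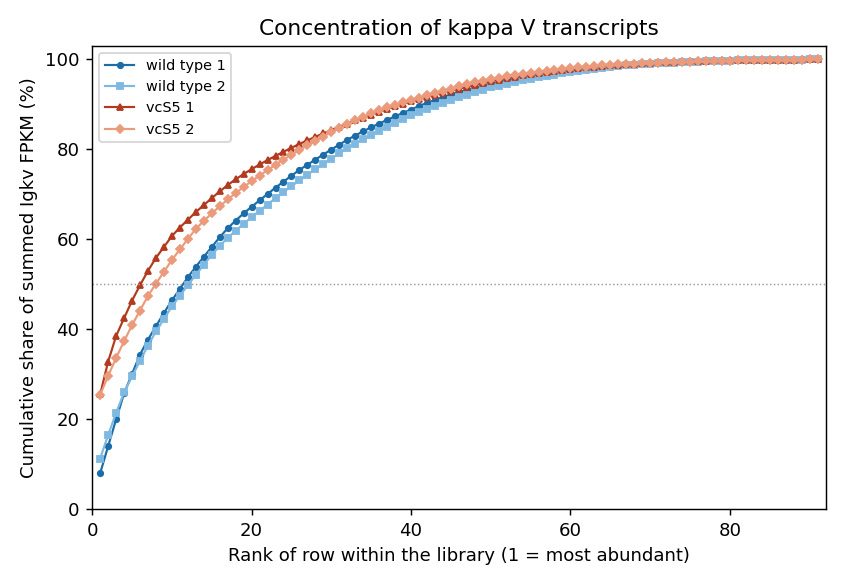
Cumulative share of summed Igkv FPKM (percent) against the rank of the row within its library, 1 curve per library, with a dotted line at 50%. The vcS5 curves start at 25.5% and 25.4% with their first row, and the wild-type curves at 7.98% and 11.3%.

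Without the Igkv5-39 row, evenness was 0.852 and 0.846 in wild type against 0.837 and 0.858 in vcS5. The wild-type values then lay between the vcS5 values, and the means differed by -0.002. The share of the 5 most used of the remaining rows was 0.65 percentage points lower in vcS5, and its groups overlapped. With only the rows that hold 1 segment, the difference in evenness was -0.003, and the groups overlapped again. Heavy chain V segments, 83 rows named Ighv, had an evenness of 0.876 and 0.883 in wild type against 0.866 and 0.889 in vcS5, also overlapping.

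**Figure D3:**
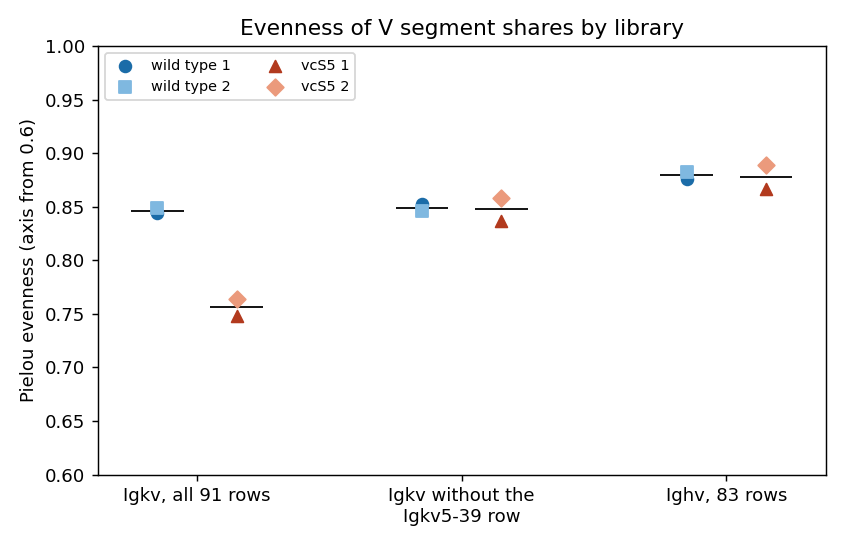
Pielou evenness (axis from 0.6) of kappa V shares, of kappa V shares without the Igkv5-39 row and of heavy chain V shares, 1 point per library and a black line at each group mean. The groups are apart only for all 91 kappa rows, at 0.844 and 0.849 in wild type against 0.748 and 0.764 in vcS5.

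Of the 91 rows, 7 had a higher share in both vcS5 libraries than in both wild-type libraries, 31 had a lower share and 53 overlapped. In FPKM, 26.9% of all rows were higher and 27.5% lower without overlap. A share within kappa V has no direct counterpart over all rows, so these counts are given as a description. A higher share of 1 row lowers the others by construction. Among the 7 rows, the largest difference upward after Igkv5-39 was that of Igkv9-120, which held 1.47% and 1.55% in wild type against 2.43% and 1.77% in vcS5. Igkv16-104 followed with 1.28% and 1.17% in wild type against 1.55% and 1.56% in vcS5. Both were under 1 percentage point, against 20.1 for Igkv5-39.

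Among the 31 rows, the largest difference downward was that of Igkv4-55, which held 6.03% and 0.85% in wild type against 0.754% and 0.488% in vcS5. Next among them, Igkv8-24 held 4.34% and 2.29% in wild type against 1.29% and 2.25% in vcS5. Its FPKM was 711 and 273 in wild type against 147 and 166 in vcS5. Igkv4-72 held 2.97% and 1.04% in wild type against 0.745% and 0.990% in vcS5. In all 3 the second wild-type value lay close to the vcS5 values.

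The overlap of 2 profiles, summed as the smaller share of each row, was 75.3% between the wild-type libraries and 84.6% between the vcS5 libraries. Between the groups it was 70.8% to 72.3%. Without Igkv5-39 these values were 76.8% for wild type, 79.4% for vcS5 and 75.8% to 84.5% between the groups. With that row left out, wild-type replicate 2 was closer to both vcS5 libraries than to wild-type replicate 1.

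By family, the 4 rows of family 5 held 10.2% and 5.96% in wild type against 27.0% and 27.7% in vcS5. Family 4, the largest with 26 rows, held 25.2% and 18.9% in wild type against 15.0% and 13.5% in vcS5. With the merged row of family 5 left out of the shares, the groups overlapped in both families. Family 5 then held 2.47% and 3.26% in wild type against 1.96% and 3.08% in vcS5. Family 4 then held 27.4% and 19.4% in wild type against 20.1% and 18.1% in vcS5. In family 4, 25 of 26 rows had a log2 change below 0, with a median of -1.08, and 3 passed the test. Family 8 had 3 lower calls among 8 rows, all with a log2 change below 0. In family 3, 6 of 8 rows had overlapping groups, none passed and the median was -0.42. In family 12 all 5 rows overlapped. Over all 14226 rows 4.13% passed as lower, 49.9% had a log2 change below 0 and 6485 overlapped.

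Along the locus, the 33 rows less than 1000 kb from Igkj1 held 39.7% and 43.0% in wild type against 56.2% and 52.0% in vcS5. Without Igkv5-39, which lies 822 kb from Igkj1, they held 34.5% and 41.4% in wild type against 41.2% and 35.7% in vcS5, and the groups overlapped. Median log2 changes were -0.65 for these rows, -1.01 for the 31 rows at 1000 to 2000 kb and -0.81 for the 27 rows farther away. Lower calls numbered 4, 3 and 4.

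By orientation, 35 rows lie on the plus strand, as Igkc does, and join by deletion, and 56 lie on the minus strand and join by inversion. The minus-strand rows held 65.2% and 55.3% of kappa V expression in wild type and 65.4% and 67.2% in vcS5, and without Igkv5-39 the groups overlapped. Median log2 changes were -0.58 on the plus and -0.90 on the minus strand, with 3 and 8 lower calls. The library preparation did not mark strand, so reads of overlapping segments on opposite strands cannot be told apart.

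**Figure D4:**
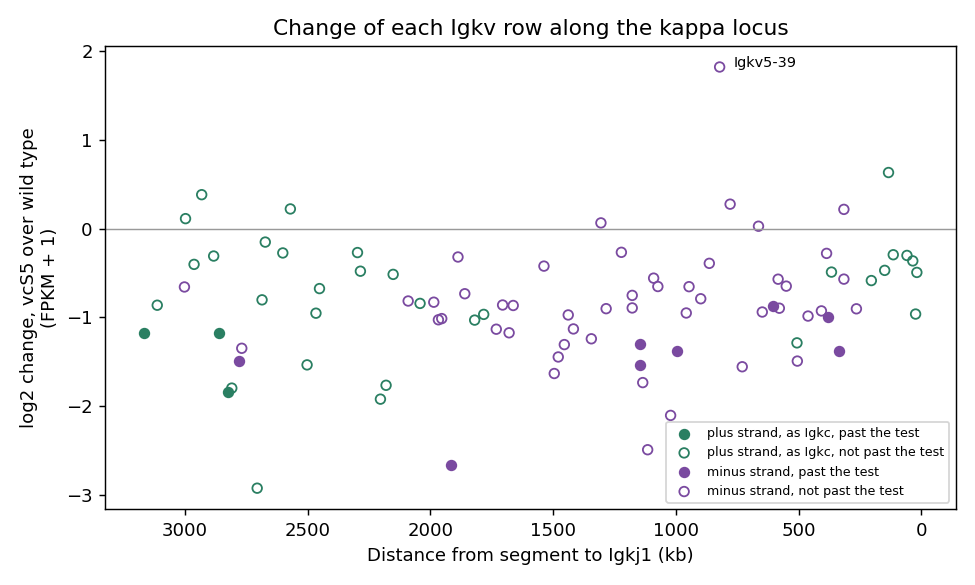
log2 change of each Igkv row, vcS5 over wild type on FPKM + 1, against the distance of its segment from Igkj1 in kb, by strand, with filled points for the 11 rows that passed the limma test. Filled points occur less than 1000 kb from Igkj1, at 1000 to 2000 kb and beyond, and Igkv5-39 lies alone at 1.82.

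The remaining merged rows were lower in both vcS5 libraries or overlapped. Igkv6-25, which merges Igkv6-25 and Igkv6-17, was at 486 and 278 FPKM in wild type, and at 216 and 104 FPKM in vcS5. Igkv6-15, which merges Igkv6-15 and Igkv6-14, was at 383 and 330 FPKM in wild type against 329 and 174 FPKM in vcS5. The Igkv4-81 row also lists the identifier of Igkv4-51, whose annotated V exon (chr6:69681406-69681714) lies outside the deposited span of the row. Igkv4-81 was at 16.5 and 11.3 FPKM in wild type, while vcS5 had 10.5 and 2.92 FPKM. All 3 were lower in both vcS5 libraries, by a narrow margin for Igkv6-15 and Igkv4-81, and none passed the test. The row named Igkv11-106 lies over Igkv19-93 by position and was at 423 and 415 FPKM in wild type, and at 276 and 201 FPKM in vcS5, without passing the test.

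Of the other light chain genes, 3 of 5 measured passed as lower, counted by the most abundant row of each, where 4.13% of all rows did. They were the lambda constant gene Iglc2 and the lambda V genes Iglv2 and Iglv3. Less abundant second rows of Iglc2, Iglv1 and Iglv3 were also lower without overlap, and only that of Iglc2 passed. Iglc2 was at 798 and 944 FPKM in wild type against 296 and 280 FPKM in vcS5 (log2 change -1.59, limma adjusted p = 0.0127). Iglv2 was at 193 and 208 FPKM in wild type, while vcS5 had 58.6 and 58.7 FPKM. Iglv3 was at 266 and 296 FPKM in wild type, and at 90.4 and 96.2 FPKM in vcS5. Iglv1, the most abundant lambda V gene, was at 661 and 706 FPKM in wild type against 422 and 433 FPKM in vcS5 and did not pass (limma adjusted p = 0.0747). The ratio of summed kappa V to lambda V was 14.4 and 9.71 in wild type against 19.6 and 12.4 in vcS5, with overlapping groups.

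Of 24 listed genes that transcribe or rearrange the kappa locus, 20 were measured. Rag1, Rag2, Irf8 and Spi1 had no row. Of the 20 measured, 9 passed as lower and none as higher. Over all rows 4.13% passed as lower and 4.59% as higher. At an unadjusted p under 0.05 there were 11 lower and 1 higher, Dntt. The authors' deposited table has 9 of the 20 as lower and 1, also Dntt, as higher by q-value. Pax5, which sets B cell identity, was at 303 and 390 FPKM in wild type, while vcS5 had 109 and 123 FPKM (log2 change -1.56, limma adjusted p = 0.0146). Ikzf3 (Aiolos), at 215 and 259 FPKM against 157 and 152 FPKM, and Ikzf1 (Ikaros), at 147 and 173 FPKM against 163 and 156 FPKM, did not pass. The B cell coactivator Pou2af1 and the factors Pou2f2, Spib, Irf4, Tcf4, Mef2c, Bcl11a and Rel were the other 8 lower calls. A second, less abundant row of Rel did not pass, and neither did the broadly expressed Yy1, Ctcf, Tcf3 and Rela.

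Among the cell type lists, 16 of 17 B cell markers passed as lower, where 4.13% of all rows did. Their median log2 change was -1.38. Cd79a, a signalling chain of the B cell receptor, was at 730 and 986 FPKM in wild type, and at 311 and 304 FPKM in vcS5. Cd79b, its partner, was at 665 and 819 FPKM against 284 and 280 FPKM, and the surface protein Cd37 was at 717 and 757 FPKM against 409 and 391 FPKM. Ebf1 did not pass.

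Of 12 plasma cell markers 3, Mzb1, Irf4 and Tnfrsf13b, passed as lower, where 4.13% of all rows did. A second, less abundant row of Tnfrsf13b did not pass. On the log2 scale 10 markers were lower and 2, Slamf7 and Prdm1, were higher. Slamf7 was at 32.8 and 30.6 FPKM in wild type against 36.9 and 38.9 FPKM in vcS5, without passing. Igj, the joining chain of secreted antibody, was at 965 and 566 FPKM in wild type against 554 and 372 FPKM in vcS5 and did not pass. Mzb1, an antibody-folding cofactor, passed at 144 and 159 FPKM against 70.4 and 63.4 FPKM, and Xbp1 did not, at 106 and 80.3 FPKM against 67.0 and 60.6 FPKM. Of the pre-B cell list only Vpreb3, which passed as lower, and Dntt were measured. Dntt went the other way, at 0.817 and 0.942 FPKM in wild type against 2.12 and 2.97 FPKM in vcS5. It did not pass in limma, and the authors' deposited table has it as higher by q-value.

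T cell markers differed the other way, with 5 of 9 called as higher, where 4.59% of all rows were, and none as lower. Thy1 was at 120 and 164 FPKM in wild type, while vcS5 had 557 and 708 FPKM, and passed. Lck was at 148 and 226 FPKM against 409 and 637 FPKM and Cd3g at 132 and 211 FPKM against 337 and 556 FPKM, and neither passed. The T cell list summed to 756 and 1035 FPKM in wild type and to 2085 and 2797 FPKM in the vcS5 libraries.

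None of 8 neutrophil markers passed, although all 8 were lower in vcS5 without overlap, where 27.5% of all rows were. The authors' deposited table has q-values under 0.05 for all 8, where 6.14% of all rows have one as lower. S100a8 was at 2932 and 714 FPKM in wild type against 489 and 389 FPKM in vcS5, S100a9 at 2026 and 776 FPKM against 354 and 394 FPKM, and Ngp at 575 and 162 FPKM against 71.4 and 75.7 FPKM. None of 6 erythroid markers passed and all 6 overlapped, with Hbb-b1 at 594 and 883 FPKM in wild type, while vcS5 had 323 and 947 FPKM. Hba-a1 was at 296 and 382 FPKM against 142 and 406 FPKM and Hba-a2 at 152 and 234 FPKM against 84.6 and 262 FPKM. The part of the B and T cell marker differences in the level of single segments was not tested.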

How the data were processed

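RNA of frozen spleen cell suspensions went into TruSeq v2 libraries, which carry no strand, and was read as 50 bp single ends, per the labels' protocols. The authors deposited an FPKM value per library, and per the file headers also a log2 fold change, a p-value and a q-value of their own comparison. Bowtie2 2.1.0, TopHat2 2.0.9, Cufflinks, Cuffdiff 2.1.1 and mm10 are named in the submitters' processing notes. Read numbers are lost in FPKM. From steps between low values, 1 read in wild-type replicate 1 was worth 0.847 of 1 in wild-type replicate 2, 0.901 and 0.831 of 1 in the vcS5 libraries. Absolute depth is unknown, so no counting interval is given.

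From these values, log2(FPKM + 1) was fitted with limma 3.58.1 (R 4.3.3; variance trend, 14226 rows, two-sided, Benjamini-Hochberg, threshold 0.05, 3.17 prior and 2 residual degrees of freedom) and tested on simulated data. Measures per library were compared by exact permutation in scipy 1.17.1. Folds are ratios of mean FPKM. The labels call the samples biological replicates but name no litter or day. Sequences, strands and positions come from GENCODE vM21 (GRCm38). Of the rows, 3 were placed by position because their identifier is not annotated at that locus.

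The members and gene lists were chosen with earlier results of these data known. Named with values were the 8 most abundant rows, the 5 highest of each library, all called and merged rows, the 3 largest rises and falls in share without overlap, and up to 3 members per list by mean. Igkv3-9, Igkv1-122, Igkv12-38, the remaining family 5 rows and the plasma cell markers Slamf7 and Prdm1 were chosen after their values were seen. Where a listed gene had several rows, its most abundant row was counted. Alternatives were another pseudocount, a filter at a mean FPKM of 5, other scalings, no variance trend, a replicate block, single-segment rows, other evenness measures and leaving out each library.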

Additional observations from a re-analysis of the deposited data

How the results depend on the processing

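The 11 lower rows all passed again with a pseudocount of 0.1, a filter at a mean FPKM of 5, quantile normalization and no variance trend. Scaling to rows that are not immunoglobulin left 8 lower calls, all among the 11. Leaving out 1 library gave 0 to 6 lower calls and no higher call, and the 11 rows then had adjusted p from 0.0522 to 0.176. The authors' deposited q-value gave 32 lower and 1 higher. The labels share replicate numbers without saying that they pair. A replicate block gave 17 lower calls, 8 of them among the 11, and same-numbered deviations correlated at 0.17 over the Igkv rows. Since each replicate number occurs in both groups, a block cannot change a difference of means. The per-library differences therefore stayed as they were by construction.

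Without the Igkv5-39 row, an alternative chosen after seeing the data, the share of the 5 most used rows differed by -0.65 percentage points and the log2 ratio of Igkv to Igkc by -0.0294. With single-segment rows only, that ratio differed by -0.0242. In all 3 reversals the Igkv5-39 row was left out. The single-segment setting left out the other merged rows as well, so the part of that row alone was not tested there. The log2 change of Igkv3-2 ran from -2.01 to 0.0854 when 1 library was left out, the latter without vcS5 replicate 2. When 1 library was left out, the log2 sum of Igkv ran from -0.30 to -0.92 and the difference in evenness from -0.08 to -0.10. Evenness by family differed by -0.038, and the differences of -0.003 with single-segment rows and -0.002 without Igkv5-39 had overlapping groups. The log2 sum was -0.95 under each of these last 2 alternatives. With 2 libraries a group, no exact test of a single measure can fall below 0.333.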

Other observations

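Rows without a gene identifier also lie in the kappa V region, and 4 of them are given here, chosen after their values were seen. A row at chr6:70457972-70458088, which overlaps the annotated Igkv6-13 gene and ends beyond it, was at 287 and 406 FPKM in wild type, and at 318 and 69.0 FPKM in vcS5. That is above the row named Igkv6-13, which was at 51.4 and 67.8 FPKM in wild type against 49.7 and 19.4 FPKM in vcS5. The named row spans chr6:70457501-70457787, within the V exon. Both rows overlap the same annotated gene in different parts, so their FPKM are not levels of separate genes. A row at chr6:69681426-69681593, within Igkv4-51, was at 9.12 and 21.5 FPKM in wild type, while vcS5 had 50.6 and 16.5 FPKM. Between the last V segment, Igkv3-1, and the J segments, a row at chr6:70719379-70722381 was at 31.5 and 33.3 FPKM in wild type, and at 15.6 and 13.5 FPKM in vcS5. A row at chr6:70044109-70044689, over Igkv8-34, was at 17.1 and 2.74 FPKM in wild type against 2.61 and 0.465 FPKM in vcS5. Of these 4 rows, only the row at chr6:70719379-70722381 had close wild-type values and groups well apart. A less abundant row at chr6:70713672-70714633, not among the 4, was at 1.78 and 2.00 FPKM in wild type against 0.396 and 0.752 FPKM in vcS5. None of these rows entered the segment shares.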
